A study of Mus musculus with 6 samples.

Results

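Initiation is the step of protein synthesis at which the small ribosomal subunit, loaded with the initiator tRNA, is brought to an mRNA and finds its start codon. The proteins that carry it out are the eukaryotic initiation factors, whose genes carry Eif symbols. eIF2 delivers the initiator tRNA, eIF3 is the multi-subunit scaffold on the small subunit, and the eIF4 factors bind the cap of the mRNA and unwind its leader. The kinases HRI, PKR, PERK and GCN2 phosphorylate the alpha subunit of eIF2 under different stresses, which lowers initiation in general and is the entry to the integrated stress response. In activated macrophages, control of initiation helps to set how much protein is made from the mRNAs of cytokines and other inflammatory mediators.

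The genes described here are the protein-coding entries of the deposited gene count table whose symbol begins with Eif and a digit of 1 to 6, and which had at least 60 counts summed over the 6 libraries. They number 49, of 41972 entries in the table and 20461 annotated as protein coding. Of 52 protein-coding entries with such a symbol, 3 fell under the minimum: Eif4ebp3 with 38 counts, Eif4e1b with 1 and Eif5a2 with 0. All 49 genes passed the filter on low counts and were tested among 12740 genes. Their counts summed over the libraries ran between 1738 (Eif4e3) and 131852 (Eif4g2). The gamma subunit of eIF2 is not among them by name, and an entry that the table describes as eIF2 subunit 3 (MGP_C57BL6NJ_G0036407, chromosome X, 93348154 to 93375440) carries no symbol.

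The libraries came from bone-marrow-derived macrophages of wild-type 6-week-old male C57BL/6 mice, grown from marrow for 6 days with L-929-conditioned medium, a source of macrophage colony-stimulating factor. For 6 h they received 20 µg per well of extracellular vesicles (EVs), secreted membrane particles, of Aspergillus flavus, a mould, from what the titles call strain LD-F1_b or strain LD-F1, or they received PBS and no EVs. Each of the 3 groups had 2 biological replicates, and the sources used here do not explain the suffix in LD-F1_b. They do not say either whether replicates came from separate mice or cultures, so p-values measure only the spread between these libraries. The comparisons ask how the macrophages respond to either EV preparation and whether the responses differ. In bulk RNA of this kind, a change in the makeup of the culture and a change of RNA per cell cannot be told apart.

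Libraries held 13722215 to 15277997 counts, of which the 49 genes took 1.55% to 1.69%. The replicates of a group correlated at r = 0.9885 (LD-F1_b), 0.9842 (LD-F1) and 0.991 (PBS) over log2 CPM, the count scaled to a common library total. The macrophage genes Csf1r, Cd68 and Adgre1 were abundant in every library, while Fcgr1, Mertk and Itgam had 413, 28 and 7 counts in all. No entry named Lyz2 was found among the genes analysed here. The 6 macrophage markers with counts summed to 2347 and 2394 CPM with LD-F1_b EVs, 2263 and 2025 with LD-F1 EVs and 2459 and 2454 with PBS. Markers of neutrophils, T, NK and B cells, fibroblasts, red cells, mast cells and megakaryocytes summed to less than 1 CPM per list in every library. A list of 5 dendritic cell markers summed to 6.74 and 6.09 CPM with LD-F1_b EVs, 8.67 and 8.57 with LD-F1 EVs and 3.33 and 3.01 with PBS. Of these 5, Xcr1 held most of the counts, while Flt3 had 0 counts in 4 of the 6 libraries. These sums moved with the groups, and their part in the results on initiation factor genes was not tested.

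Over the whole set, changes were small: log2 fold changes against PBS lay between -0.41 and 0.62 with LD-F1_b EVs and between -0.54 and 0.83 with LD-F1 EVs. With LD-F1_b EVs, 4 genes rose and 1 fell, 10.2% of the 49, where 11.0% of all genes tested were called (6.44% higher and 4.54% lower). With LD-F1 EVs, 13 rose and 2 fell, 30.6% of the 49, where 21.2% of all genes were called (11.4% higher and 9.87% lower). Calls, here and below, rest on edgeR's quasi-likelihood test with an adjusted p (Benjamini-Hochberg, over all 12740 genes) under 0.05. The median log2 fold change of the 49 was 0.12 with LD-F1_b EVs and 0.17 with LD-F1 EVs, against 0.006 over all genes in either comparison. The comparisons with PBS share the same PBS libraries, so they are not independent of each other.

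Between the EV groups, 0 of the 49 genes were called by edgeR, where 0.424% of all genes were (0.0157% higher and 0.408% lower). Log2 fold changes of LD-F1_b against LD-F1 ran between -0.24 and 0.19, with a median of -0.07. At an unadjusted p under 0.05 there were 2 genes, Eif5 (-0.22 ± 0.09 SE) and Eif6 (-0.24 ± 0.10). That is 4.08% of the 49, where 8.78% of all genes had such a p, and DESeq2 called 0. The count of 15 genes called with LD-F1 EVs and that of 5 with LD-F1_b EVs therefore do not show that the preparations differ. Without LD-F1 replicate 1, however, 1 gene was higher with LD-F1_b EVs than with LD-F1 EVs (Eif4g3) and 8 were lower (Eif1, Eif3g, Eif3i, Eif3k, Eif3m, Eif4ebp1, Eif5 and Eif6), where 8.65% of all genes were then called.

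These counts depended on single libraries. The calls with LD-F1_b EVs became 15 higher and 3 lower without LD-F1 replicate 1, without LD-F1 replicate 2, or with only the LD-F1_b and PBS libraries in the fit, which is 36.7% of the 49 where 23.4%, 23.5% and 24.8% of all genes were then called. The genes called in these 3 fits were Eif1, Eif1a, Eif2ak3, Eif3c, Eif3e, Eif3f, Eif3i, Eif3l, Eif4a1, Eif4a2, Eif4e, Eif4ebp1, Eif5, Eif5a and Eif6 (higher) and Eif2ak4, Eif4ebp2 and Eif4g3 (lower). The calls became 1 and 0 without LD-F1_b replicate 1 (3.01% of all genes called), 0 and 0 without LD-F1_b replicate 2 (3.29%), 0 and 0 without PBS replicate 1 (3.01%), and 2 and 0 without PBS replicate 2 (3.56%). With LD-F1 EVs they became 23 higher and 4 lower without LD-F1 replicate 1, where 33.7% of all genes were called, 7 and 2 without either LD-F1_b library (14.9%), 2 and 0 without PBS replicate 1 (9.12%), and 4 and 2 without PBS replicate 2 (9.7%). Without LD-F1 replicate 1, calls were gained by Eif2b3, Eif2b5, Eif3a, Eif3b, Eif3d, Eif3f, Eif3g, Eif3i, Eif4e, Eif4g2, Eif4h and Eif5a (higher) and by Eif4enif1 and Eif4g3 (lower). Without LD-F1 replicate 2 the count stayed at 15, with Eif4g2 and Eif5a (higher) and Eif2b4 (lower) gained. Shares of genes called thus moved over the whole table in these fits, not in the initiation factor genes alone. The calls of Eif4ebp1 and Eif6 with LD-F1 EVs were the only ones of the set kept in all of 14 alternative fits.

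**Figure D1:**
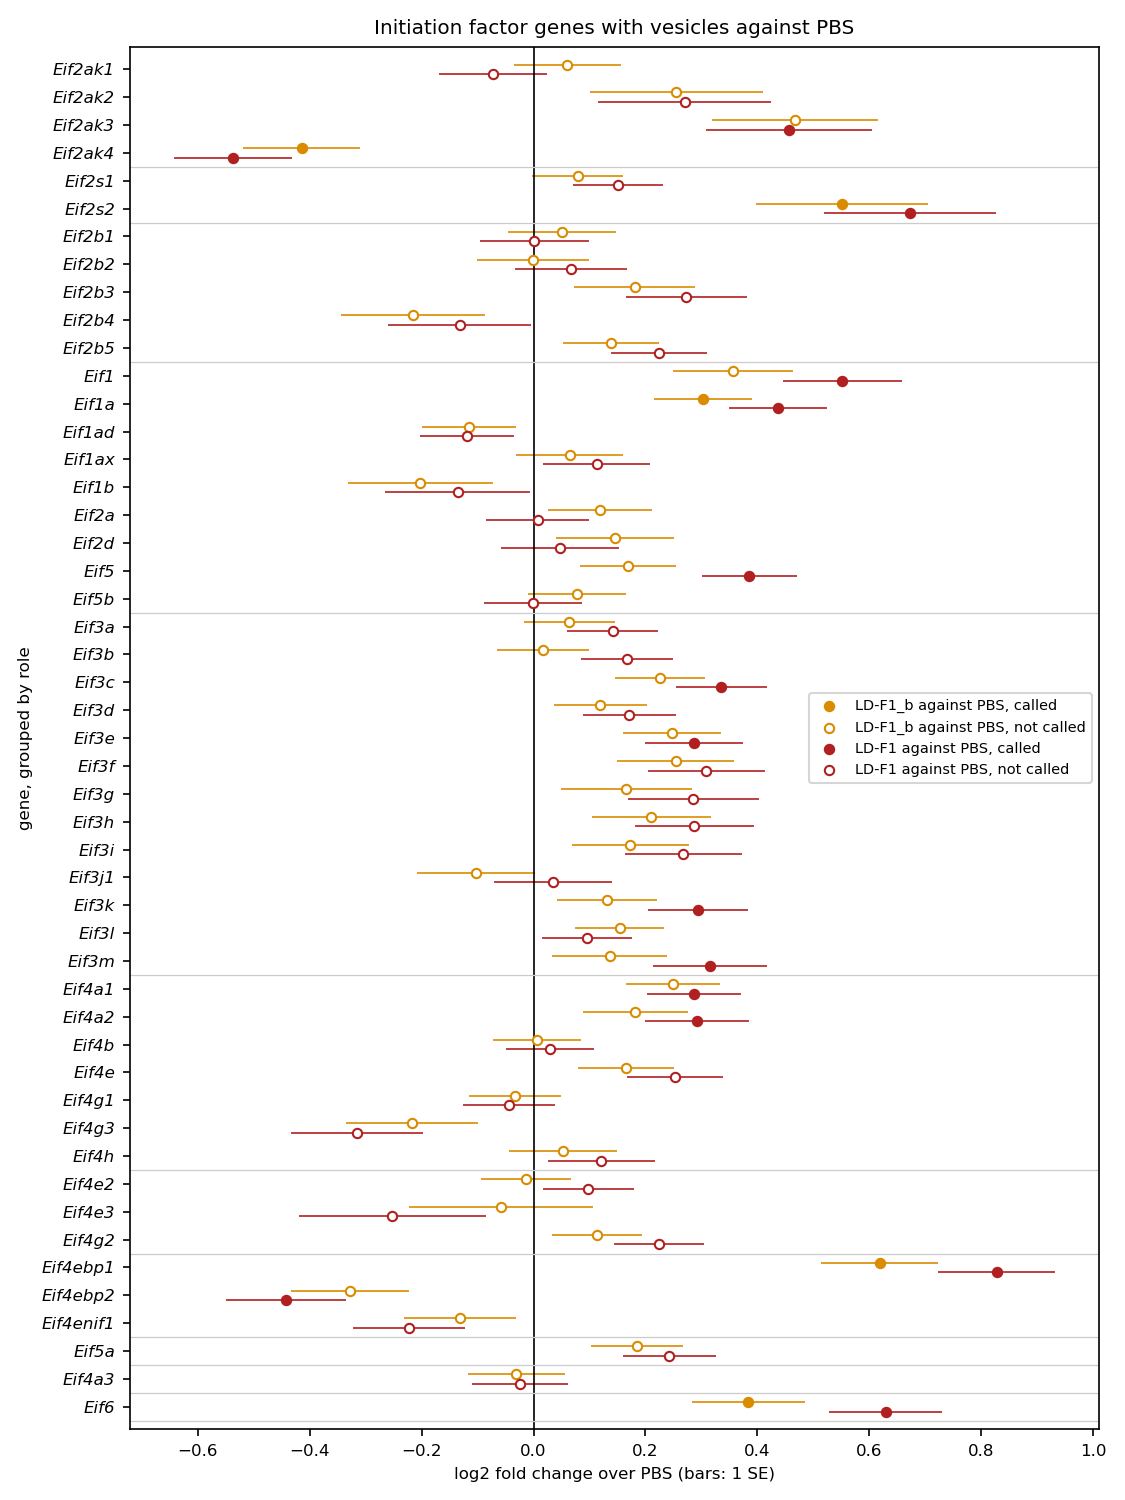
Log2 fold change against PBS (x axis) of the 49 genes, grouped by role down the page, for LD-F1_b EVs (orange) and LD-F1 EVs (red). Bars are 1 SE, n = 2 libraries per group, and filled points are called. Eif4ebp1 lies farthest to the right and Eif2ak4 farthest to the left in both comparisons.

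The 4 eIF2 kinase genes did not move together: Eif2ak4 fell with both EV preparations, Eif2ak3 had nearly the same value with both and was called with LD-F1 EVs, and Eif2ak1 and Eif2ak2 were not called. Eif2ak4 encodes GCN2, the kinase that senses uncharged tRNA. Its level was 54.7 and 50.8 CPM with LD-F1_b EVs, 51.0 and 45.9 CPM with LD-F1 EVs, and 73.0 and 67.5 CPM with PBS. All 4 EV libraries lay below both PBS libraries. Its log2 fold change was -0.41 ± 0.10 with LD-F1_b EVs (SE, edgeR adjusted p = 0.024) and -0.54 ± 0.11 with LD-F1 EVs (adjusted p = 0.00315). The LD-F1_b call was lost without LD-F1_b replicate 1 (adjusted p = 0.127) or 2 (0.228) and without PBS replicate 1 (0.283) or 2 (0.117), and the LD-F1 call without PBS replicate 1 (0.0658). In the table's own positions, taken as C57BL/6NJ ones, Eif2ak4 (MGP_C57BL6NJ_G0026735) spans 125072581 to 125165959 of chromosome 2 on the plus strand.

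Eif2ak3 (MGP_C57BL6NJ_G0031288, chromosome 6, 73159737 to 73226218, plus strand) encodes PERK, the kinase of the endoplasmic reticulum that senses unfolded protein. It is the lowest of the kinases per length, with 3.10 ± 0.26 RPKM (CPM per kilobase of gene length, SD, n = 2) in PBS. It had 23.4 and 28.3 CPM with LD-F1_b EVs, 27.6 and 23.7 CPM with LD-F1 EVs, and 19.8 and 17.6 CPM with PBS. The EV libraries lay above both PBS libraries in each comparison, and the EV groups overlapped. The log2 fold change was 0.47 ± 0.15 with LD-F1_b EVs, which was not called (edgeR adjusted p = 0.0663), and 0.46 ± 0.15 with LD-F1 EVs, which was (adjusted p = 0.047). Between the EV groups it differed by 0.01 ± 0.15 (edgeR adjusted p = 0.993). The LD-F1_b value was called in 6 of 14 alternative fits, among them those with no filter (adjusted p = 0.0293), with a gene-length offset (0.0238), with only the groups compared (0.0152) and without LD-F1 replicate 1 (0.0133) or 2 (0.011). The LD-F1 call was kept in 5 of 14. It was lost with DESeq2 (adjusted p = 0.0885), with library totals alone for scaling (0.115) and with only the groups compared in the fit (0.0724). It was also lost without LD-F1 replicate 1 (adjusted p = 0.11), without LD-F1_b replicate 1 (0.0692) or 2 (0.0707) and without PBS replicate 1 (0.132) or 2 (0.316).

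Eif2ak2 encodes PKR, the kinase activated by double-stranded RNA, whose gene is known to be induced by interferon. It had 83.0 and 60.8 CPM with LD-F1_b EVs, 82.2 and 63.2 CPM with LD-F1 EVs, and 62.6 and 57.8 CPM with PBS. In either EV group, replicate 1 lay well above the PBS libraries and replicate 2 close to them. The log2 fold changes of 0.25 ± 0.15 with LD-F1_b EVs (edgeR adjusted p = 0.346) and 0.27 ± 0.15 with LD-F1 EVs (adjusted p = 0.249) did not pass. Eif2ak1, which encodes the heme-regulated kinase HRI, had 77.6 and 83.1 CPM with LD-F1_b EVs, 76.3 and 70.3 CPM with LD-F1 EVs, and 77.6 and 76.5 CPM with PBS. Its log2 fold changes against PBS, 0.06 ± 0.10 with LD-F1_b EVs and -0.07 ± 0.10 with LD-F1 EVs, had opposite signs, and the EV groups differed by 0.13 ± 0.10 (edgeR adjusted p = 0.775). Eif2ak1 overlaps Aimp2 on the opposite strand, an entry with 50.1% as many counts, and the sources used here do not state the strand setting of the counting. Of the 49 genes, 12 overlap an entry of at least 60 counts, 10 of them one on the opposite strand.

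Summed over the 4 genes, kinase expression was 239 and 223 CPM with LD-F1_b EVs, 237 and 203 CPM with LD-F1 EVs, and 233 and 220 CPM with PBS, so the sums of the groups overlapped. The share of Eif2ak4 in the summed RPKM of the kinases was 19.1% and 19.2% with LD-F1_b EVs, 17.9% and 19.0% with LD-F1 EVs, and 26.8% and 26.3% with PBS. The makeup of the kinase mRNAs thus held less Eif2ak4 in each EV library than in either PBS library.

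Promoter windows of the kinases with contrasting values, Eif2ak2, Eif2ak3 and Eif2ak4, are shown because PKR is the interferon-induced member of the family. They run from 250 bases before to 50 bases after the transcript start, from RefSeq on GRCm38.p6, and are written along the gene's own strand. Capitals in Eif2ak2 mark 2 overlapping matches to GAAANNGAA, the core letters of the interferon-stimulated response element, and lower-case windows hold no match on either strand. Eif2ak4 has another window, chr2:118388862-118389161 on the plus strand, which holds no match either and is not printed.
Eif2ak2, chr17:78882523-78882822, minus strand: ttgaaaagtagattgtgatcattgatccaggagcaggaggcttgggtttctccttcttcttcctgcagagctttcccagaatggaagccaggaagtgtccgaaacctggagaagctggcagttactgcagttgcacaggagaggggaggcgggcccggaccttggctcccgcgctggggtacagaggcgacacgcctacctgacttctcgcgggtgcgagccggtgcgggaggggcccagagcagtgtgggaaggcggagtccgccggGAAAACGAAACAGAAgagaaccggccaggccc
Eif2ak3, chr6:70844265-70844564, plus strand: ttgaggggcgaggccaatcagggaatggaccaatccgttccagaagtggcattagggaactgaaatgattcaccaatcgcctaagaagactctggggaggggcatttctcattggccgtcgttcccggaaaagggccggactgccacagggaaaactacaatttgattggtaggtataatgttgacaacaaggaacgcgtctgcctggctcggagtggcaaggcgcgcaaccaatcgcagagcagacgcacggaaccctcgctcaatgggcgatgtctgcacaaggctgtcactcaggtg
Eif2ak4, chr2:118388367-118388666, plus strand: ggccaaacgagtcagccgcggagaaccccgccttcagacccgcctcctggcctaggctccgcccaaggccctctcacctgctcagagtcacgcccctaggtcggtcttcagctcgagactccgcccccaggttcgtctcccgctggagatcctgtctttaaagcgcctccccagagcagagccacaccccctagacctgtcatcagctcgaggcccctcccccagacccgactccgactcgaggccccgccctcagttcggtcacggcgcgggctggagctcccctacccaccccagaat

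The matches in Eif2ak2 begin at bases 19 and 25 of the transcript and are GAAAACGAA and GAAACAGAA. Of the 49 genes, 40 had a window in the RefSeq table (53 windows in all), and 3 of these 40 held GAAANNGAA on either strand, namely Eif2ak2, Eif2s1 and Eif3a. That is 7.5% of them, against 9.76% of 27025 mouse genes with a window and 8.56% of 32851 windows. TGATGNAA, the core letters bound by ATF4 dimers, was in 0 of the 40, against 4.51% of all genes. A match of letters is a description of the window, and its absence says only that these letters are not in these bases.

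**Figure D2:**
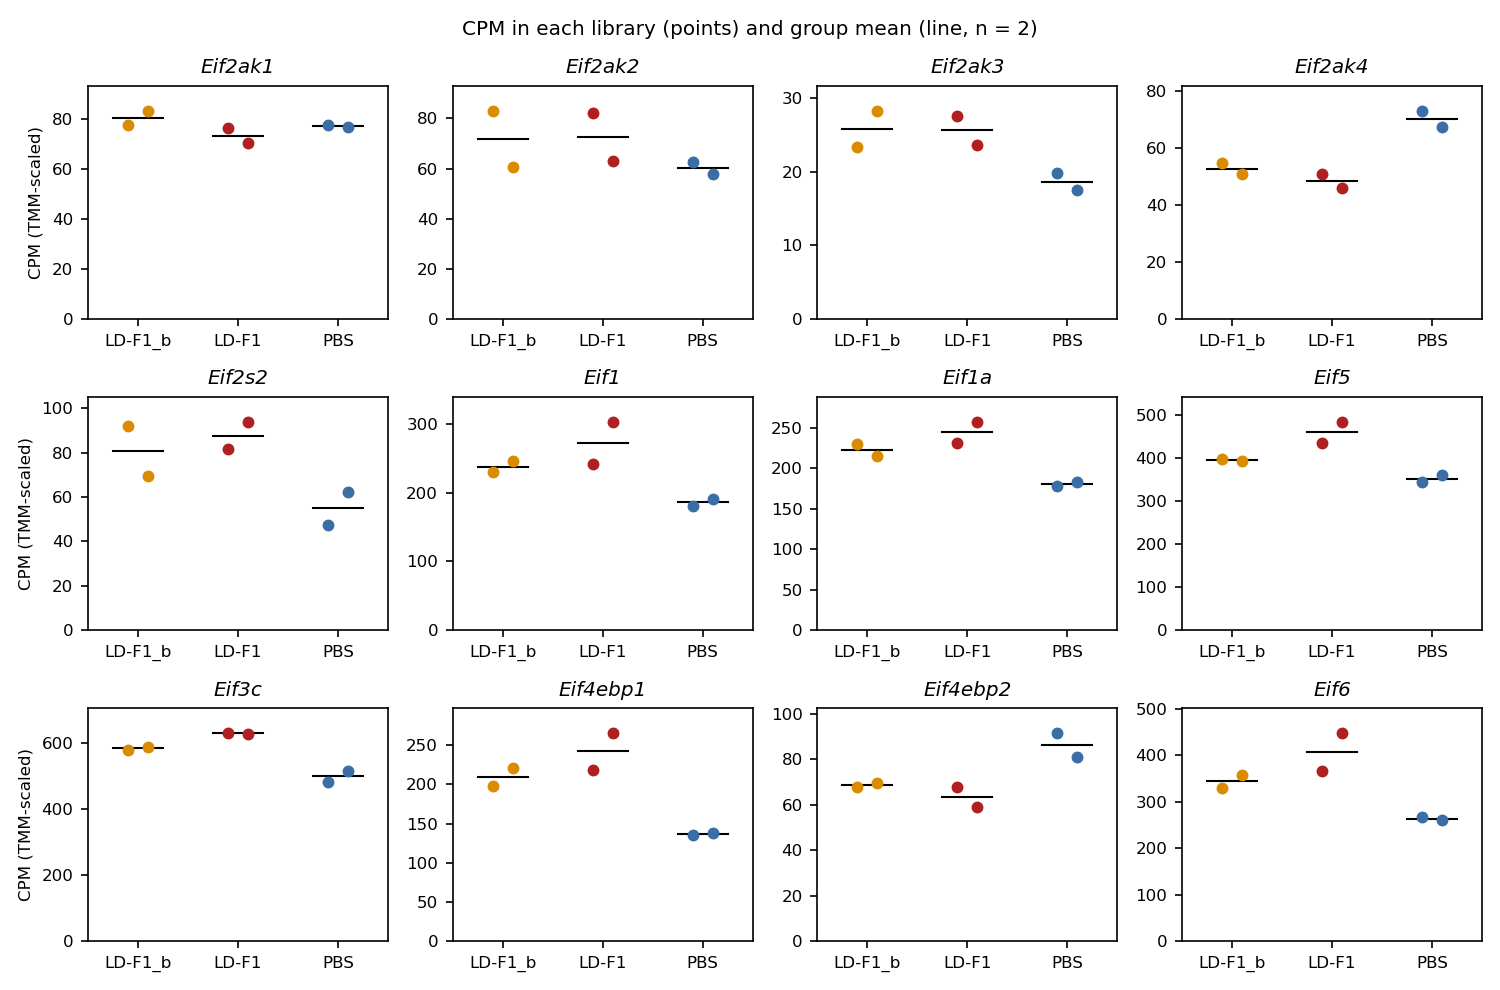
CPM (y axis, from 0, scaled by TMM factors) of 12 genes in each library (points) with the group mean (line, n = 2), for LD-F1_b EVs, LD-F1 EVs and PBS. The EV libraries of Eif4ebp1, Eif6, Eif1 and Eif1a lie above both PBS libraries and those of Eif2ak4 and Eif4ebp2 below, while the Eif2ak1 groups lie close together.

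Of the substrate of these kinases, the beta subunit gene rose and the alpha subunit gene was not called. Eif2s2 (MGP_C57BL6NJ_G0027151, chromosome 2, 164310707 to 164332649, minus strand) encodes eIF2 beta. It had 91.8 and 69.4 CPM with LD-F1_b EVs, 81.5 and 93.8 CPM with LD-F1 EVs, and 47.6 and 62.4 CPM with PBS. The EV libraries were above both PBS libraries, although replicates were spread widely in all groups. It rose by 0.55 ± 0.15 on the log2 scale with LD-F1_b EVs (edgeR adjusted p = 0.04) and by 0.67 ± 0.15 with LD-F1 EVs (adjusted p = 0.00847). The LD-F1_b call was lost with only the groups compared in the fit (adjusted p = 0.0974) and with library totals alone for scaling (0.0653). It was also lost without LD-F1 replicate 1 (0.129) or 2 (0.142), LD-F1_b replicate 1 (0.393) or 2 (0.0605) or PBS replicate 1 (0.381), and the LD-F1 call without LD-F1 replicate 1 (0.0664) or 2 (0.205) or PBS replicate 1 (0.113). Eif2s1, which encodes the alpha subunit that the kinases phosphorylate, had log2 fold changes of 0.08 ± 0.08 with LD-F1_b EVs and 0.15 ± 0.08 with LD-F1 EVs, with 71.6 ± 2.45 RPKM with LD-F1_b EVs, 75.3 ± 1.39 with LD-F1 EVs and 67.8 ± 0.884 with PBS (SD, n = 2 each). The unnamed eIF2 subunit 3 entry had log2 fold changes of -0.04 ± 0.09 with LD-F1_b EVs and 0.00 ± 0.09 with LD-F1 EVs.

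eIF2B is the exchange factor that recharges eIF2 with GTP and is the complex that phosphorylated eIF2 blocks. Of its 5 subunit genes, 0 were called by edgeR in either comparison with PBS. At an unadjusted p under 0.05 there were 2 with LD-F1 EVs (Eif2b3 and Eif2b5) and 0 with LD-F1_b EVs. Of all genes, 33.1% had such a p with LD-F1 EVs and 24.7% with LD-F1_b EVs. DESeq2 called 0 in both. The medians of their log2 fold changes were 0.05 with LD-F1_b EVs and 0.07 with LD-F1 EVs. The lowest were -0.22 ± 0.13 with LD-F1_b EVs and -0.13 ± 0.13 with LD-F1 EVs, both in Eif2b4, which overlaps the more abundant Snx17 on the opposite strand. The highest were 0.18 ± 0.11 with LD-F1_b EVs and 0.27 ± 0.11 with LD-F1 EVs, both in Eif2b3.

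Among 9 genes of start-site selection and subunit joining, Eif1a was called higher with both EV preparations, and Eif1 and Eif5 with LD-F1 EVs. With LD-F1_b EVs that was 11.1% of the 9, where 6.44% of all genes rose, and with LD-F1 EVs 33.3%, where 11.4% did. The LD-F1_b value of Eif1 depended on the fit. Eif1 and Eif1a encode small factors that hold the scanning ribosome open until the start codon is read. Eif1 (MGP_C57BL6NJ_G0019540, chromosome 11, 106270347 to 106272777, plus strand) had 229.6 and 246 CPM with LD-F1_b EVs, 242 and 303 CPM with LD-F1 EVs, and 180.2 and 191 CPM with PBS. All EV libraries were above both PBS libraries. The log2 fold change was 0.36 ± 0.11 with LD-F1_b EVs, just outside the threshold (edgeR adjusted p = 0.0528), and 0.55 ± 0.11 with LD-F1 EVs (adjusted p = 0.00292). The LD-F1_b value was called with DESeq2, with no filter, with a gene-length offset and with only the groups compared in the fit. It was not called with library totals alone or with DESeq2's scaling in edgeR. The LD-F1 call was lost without PBS replicate 1 (adjusted p = 0.0557).

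Eif1a (MGP_C57BL6NJ_G0024821, chromosome 18) had 231 and 215 CPM with LD-F1_b EVs, 232 and 257 CPM with LD-F1 EVs, and 179 and 183 CPM with PBS. It rose by 0.30 ± 0.09 with LD-F1_b EVs (edgeR adjusted p = 0.0459) and by 0.44 ± 0.09 with LD-F1 EVs (adjusted p = 0.00374), with no overlap of EV and PBS libraries. The LD-F1_b call was lost with library totals alone for scaling (adjusted p = 0.112), without LD-F1_b replicate 1 (0.332) or 2 (0.176) and without PBS replicate 1 (0.381) or 2 (0.295), and the LD-F1 call without PBS replicate 1 (0.0793) or 2 (0.0548). Eif5 encodes the factor that triggers GTP hydrolysis by eIF2 at the start codon. It had 398 and 394 CPM with LD-F1_b EVs, 436 and 484 CPM with LD-F1 EVs, and 344 and 361 CPM with PBS, so the LD-F1 libraries stood above those of both other groups. It rose by 0.39 ± 0.09 with LD-F1 EVs (edgeR adjusted p = 0.00678), while its value with LD-F1_b EVs was 0.17 ± 0.09 (adjusted p = 0.25). The LD-F1 call was lost without PBS replicate 1 (0.138) or 2 (0.0691).

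The close relatives of these genes differed from them in value. Eif1b, which encodes a near copy of eIF1, had log2 fold changes of -0.20 ± 0.13 with LD-F1_b EVs and -0.14 ± 0.13 with LD-F1 EVs, and the X-linked relative of Eif1a, Eif1ax, had 0.06 ± 0.10 and 0.11 ± 0.10. Eif5b, whose product joins the large subunit, had 0.08 ± 0.09 and 0.00 ± 0.09 in the same order. None of these 3 was called in the comparisons with PBS. The sources used here do not state how reads that map to several copies were counted, so the values of Eif1, Eif1b, Eif1a and Eif1ax are uncertain to that extent. The remaining genes of the group, Eif1ad, Eif2a and Eif2d, had log2 fold changes within -0.12 to 0.15 and were not called. Eif2a, which in spite of its symbol is no subunit of eIF2, overlaps the more abundant Serp1 on the opposite strand, and Eif2d overlaps Rassf5.

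Of the 13 genes of eIF3, 4 rose with LD-F1 EVs (30.8%, where 11.4% of all genes rose). All 13 had values above 0 there, as did 6457 of all 12740 genes. With libraries scaled by their totals alone, 11 did, where the median of all genes was -0.099. With LD-F1_b EVs, 0 of 13 were called by edgeR, where 11.0% of all genes were, and 0 by DESeq2. At an unadjusted p under 0.05 there were 3 (Eif3c, Eif3e and Eif3f), where 24.7% of all genes had such a p. Of the 13, 12 had a value above 0, as did 6477 of all 12740 genes, and the median log2 fold change of the 13 was 0.15. With only the groups compared in the fit, 5 rose with LD-F1_b EVs (Eif3c, Eif3e, Eif3f, Eif3i and Eif3l), where 24.8% of all genes were called in either direction. With LD-F1 EVs the median was 0.29. DESeq2, which called 20.4% of all genes there in either direction, called 5 of the 13, namely Eif3f and the 4 of edgeR. Those 4 were Eif3c (0.34 ± 0.08, edgeR adjusted p = 0.011), Eif3m (0.32 ± 0.10, adjusted p = 0.046), Eif3e (0.29 ± 0.09, adjusted p = 0.0369) and Eif3k (0.29 ± 0.09, adjusted p = 0.035). With library totals alone for scaling, 10 of the 13 had values above 0 with LD-F1_b EVs, where the median of all genes was -0.067. In that fit edgeR called 0 of the 13 with LD-F1 EVs, where 22.8% of all genes were called, and the median of the 13 was 0.18. The 4 calls were also lost without PBS replicate 1 (adjusted p of 0.219 to 0.277) and without PBS replicate 2 (0.0883 to 0.231). Those of Eif3e, Eif3k and Eif3m were lost without LD-F1_b replicate 1 (0.0827 to 0.108) or 2 (0.084 to 0.11) as well, and that of Eif3m without LD-F1 replicate 2 (0.135). With only the groups compared in the fit, Eif3e, Eif3k and Eif3m were not called (0.0815 to 0.111), and with a gene-length offset Eif3e (0.0748) and Eif3k (0.0785) were not.

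Eif3c (MGP_C57BL6NJ_G0033479, chromosome 7, 135916761 to 135938205, minus strand) encodes a core subunit of the scaffold. It had 578 and 586 CPM with LD-F1_b EVs, 629 and 627 CPM with LD-F1 EVs, and 481 and 514 CPM with PBS, so the LD-F1 libraries were highest and the groups did not overlap. Summed over the complex, eIF3 genes had 4571 and 4714 CPM with LD-F1_b EVs, 4757 and 5127 CPM with LD-F1 EVs, and 4206 and 4261 CPM with PBS. Each EV library lay above both PBS libraries in this sum. Per length, levels in PBS ran between 14.1 RPKM for Eif3j1, which encodes a loosely bound subunit and overlaps Spg11 on the opposite strand, and 224 RPKM for Eif3h.

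eIF4F joins the cap-binding protein eIF4E, the scaffold eIF4G and the helicase eIF4A. Of the 7 genes of eIF4F and its helpers, 0 were called with LD-F1_b EVs by edgeR and 0 by DESeq2. Eif4a1 alone had an unadjusted p under 0.05 there, as did 24.7% of all genes. With only the groups compared, Eif4a1, Eif4a2 and Eif4e were called higher and Eif4g3 lower with LD-F1_b EVs, where 24.8% of all genes were called. Both helicase genes rose with LD-F1 EVs (28.6% of the 7, where 11.4% of all genes rose). Eif4a1 had 1482 and 1521 CPM with LD-F1_b EVs, 1468 and 1615 CPM with LD-F1 EVs, and 1266 and 1261 CPM with PBS. It rose by 0.29 ± 0.08 with LD-F1 EVs (edgeR adjusted p = 0.0291) and had 0.25 ± 0.08 with LD-F1_b EVs (adjusted p = 0.0823). Eif4a2 rose by 0.29 ± 0.09 with LD-F1 EVs (edgeR adjusted p = 0.0441). The calls of Eif4a1 and Eif4a2 were lost without LD-F1_b replicate 1 (0.0886 and 0.0885) or 2 (0.0915 and 0.0901) and without PBS replicate 1 (0.235 and 0.27) or 2 (0.239 and 0.248), and that of Eif4a2 also without LD-F1 replicate 2 (0.0711). Both were lost as well with library totals alone (0.128 and 0.172) and with only the groups compared (0.0891 and 0.0883). The EV libraries of Eif4a1 and Eif4a2 all lay above both PBS libraries, although reads shared between these near copies make each value uncertain.

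The cap-binding and scaffold genes were not called. Eif4e had log2 fold changes of 0.17 ± 0.09 with LD-F1_b EVs and 0.25 ± 0.09 with LD-F1 EVs (edgeR adjusted p = 0.0544), and Eif4g1 had -0.03 ± 0.08 and -0.04 ± 0.08. Eif4g3, the longest gene of the set, had -0.22 ± 0.12 with LD-F1_b EVs and -0.32 ± 0.12 with LD-F1 EVs (edgeR adjusted p = 0.0798), and its LD-F1 replicates were far apart at 231 and 172 CPM. Eif4b and Eif4h, which encode helpers of the helicase, stayed within 0.01 to 0.12. The genes of the other cap-binding and eIF4G-like proteins, Eif4e2, Eif4e3 and Eif4g2, were not called by edgeR in the comparisons with PBS either, and only Eif4g2 with LD-F1 EVs (0.22 ± 0.08) had an unadjusted p under 0.05. DESeq2 called Eif4g2 with LD-F1 EVs as well. Of all genes, 33.1% had an unadjusted p under 0.05 with LD-F1 EVs and 24.7% with LD-F1_b EVs.

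The genes of the eIF4E-binding proteins went in opposite directions. These proteins hold eIF4E away from eIF4G until mTORC1 phosphorylates them. Eif4ebp1 (MGP_C57BL6NJ_G0033998, chromosome 8, 26431757 to 26448223, plus strand) had 198 and 221 CPM with LD-F1_b EVs, 219 and 266 CPM with LD-F1 EVs, and 135 and 138 CPM with PBS. All EV libraries lay above the PBS libraries, which were close together. It rose 1.54-fold with LD-F1_b EVs (log2 fold change 0.62 ± 0.10, edgeR adjusted p = 0.00249) and 1.77-fold with LD-F1 EVs (0.83 ± 0.10, adjusted p = 0.000144), the largest rise among the 49 genes in either comparison. The LD-F1_b call was lost without LD-F1_b replicate 2 (adjusted p = 0.0837) and without PBS replicate 1 (0.0518).

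Eif4ebp2 (MGP_C57BL6NJ_G0017676, chromosome 10, 62937196 to 62959825, minus strand) had 67.9 and 69.6 CPM with LD-F1_b EVs, 67.8 and 59.2 CPM with LD-F1 EVs, and 91.6 and 81.0 CPM with PBS. Its EV libraries all lay below the PBS libraries. The log2 fold change was -0.33 ± 0.11 with LD-F1_b EVs, which was not called (edgeR adjusted p = 0.0711), and -0.44 ± 0.11 with LD-F1 EVs, which was (adjusted p = 0.0111) and was lost without PBS replicate 1 (0.182). With LD-F1_b EVs, Eif4ebp2 was called lower with library totals alone, with no filter, with a gene-length offset and with only the groups compared. It was not called there with DESeq2 or with DESeq2's scaling in edgeR. The ratio of Eif4ebp1 to Eif4ebp2 CPM was 2.91 and 3.18 with LD-F1_b EVs, 3.22 and 4.49 with LD-F1 EVs, and 1.47 and 1.70 with PBS. The ratio of Eif4ebp1 to its target Eif4e per length was 3.23 and 3.46 with LD-F1_b EVs, 3.47 and 3.78 with LD-F1 EVs, and 2.43 and 2.46 with PBS. In both ratios each EV library exceeded both PBS libraries. For Eif4ebp1 over Eif4ebp2 this follows from the values of the single genes given above and is no further result. Eif4enif1, which encodes the protein that carries eIF4E into the nucleus, had -0.13 ± 0.10 with LD-F1_b EVs and -0.22 ± 0.10 with LD-F1 EVs and was not called.

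Eif6 encodes the factor that keeps free large subunits from joining small ones and takes part in their assembly. It lies on chromosome 2 from 165376628 to 165387495 on the minus strand (MGP_C57BL6NJ_G0027169). It had 330 and 357 CPM with LD-F1_b EVs, 366 and 447 CPM with LD-F1 EVs, and 266 and 260 CPM with PBS. The groups did not overlap, with LD-F1 libraries highest. It rose by 0.38 ± 0.10 with LD-F1_b EVs (edgeR adjusted p = 0.03) and by 0.63 ± 0.10 with LD-F1 EVs (adjusted p = 0.000851). The LD-F1_b call was lost with library totals alone for scaling (adjusted p = 0.0659), without LD-F1_b replicate 1 (0.143) or 2 (0.288) and without PBS replicate 1 (0.214) or 2 (0.257).

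Eif5a, which encodes the hypusine-bearing factor that helps ribosomes through difficult stretches, had the highest level per length of the set, at 681 ± 33.1 RPKM in PBS (SD, n = 2). Its log2 fold changes were 0.18 ± 0.08 with LD-F1_b EVs (edgeR adjusted p = 0.192) and 0.24 ± 0.08 with LD-F1 EVs (adjusted p = 0.0558), so it did not pass. With LD-F1 EVs it was called with DESeq2 and with no filter, but not with library totals, a gene-length offset or only the groups compared. With LD-F1_b EVs it was called with only the groups compared. Next in PBS were Eif4a1 at 285 RPKM and Eif4g2 at 247 RPKM. Kinases were at the low end, between 3.10 RPKM (Eif2ak3) and 13.6 RPKM (Eif2ak1), and eIF2B subunits lay between 8.36 RPKM (Eif2b3) and 41.1 RPKM (Eif2b5). Eif4a3, which encodes the helicase of the exon junction complex, had values near 0, with -0.03 ± 0.09 with LD-F1_b EVs and -0.02 ± 0.09 with LD-F1 EVs.

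**Figure D3:**
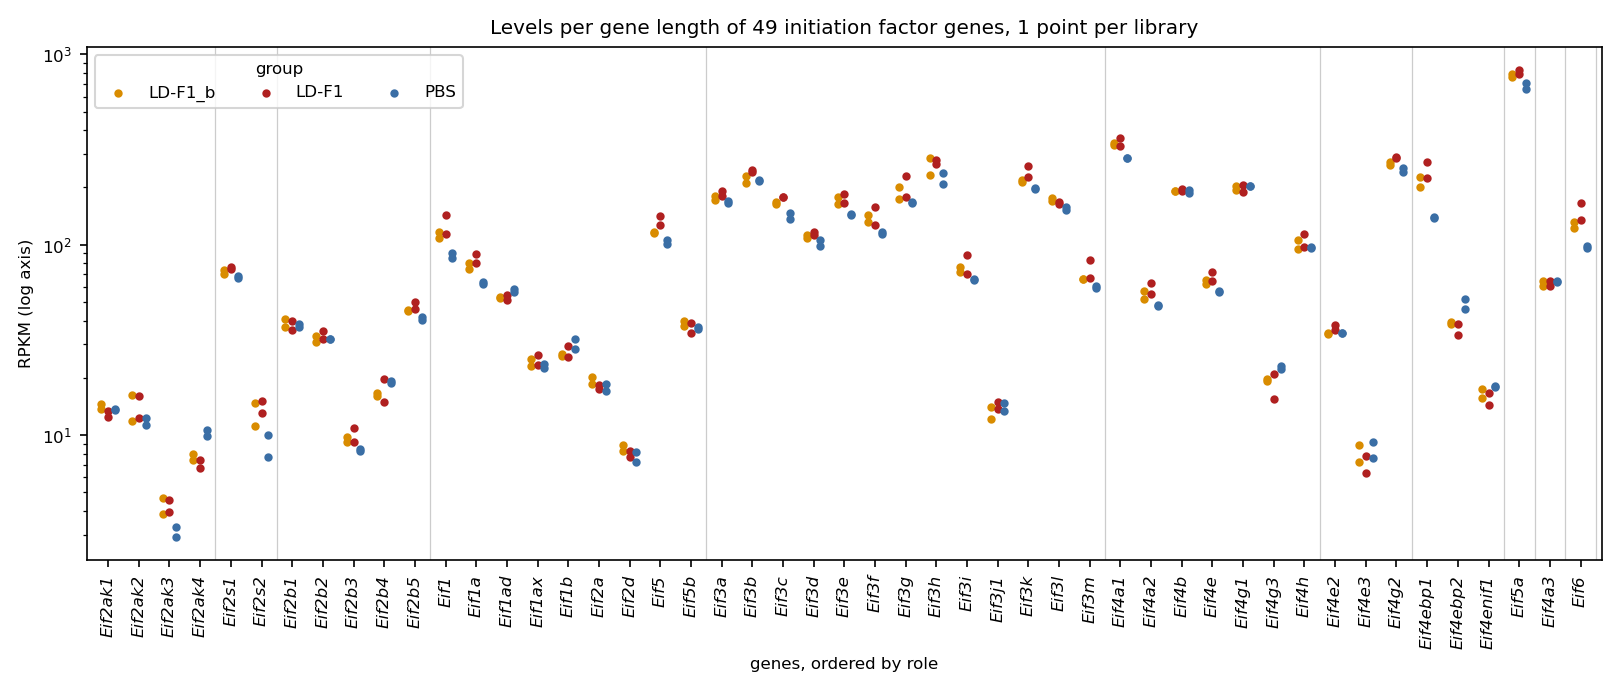
RPKM (log y axis) of the 49 genes in each library (points), ordered by role along the x axis, for LD-F1_b EVs, LD-F1 EVs and PBS. Eif5a is highest and the kinase gene Eif2ak3 lowest in PBS, and differences between groups are small beside those between genes.

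Of 62 other genes of translation and its control, 59 had an entry and 58 were tested. With LD-F1_b EVs, 4 rose and 2 fell (10.3% of 58, against 11.0% of all genes), with a median log2 fold change of 0.04, and with LD-F1 EVs, 10 rose and 5 fell (25.9%, against 21.2%), with a median of 0.11. Between the EV groups, 0 were called by edgeR and 0 by DESeq2, and 5 had an unadjusted p under 0.05, with log2 fold changes between -0.72 and 0.59. Of all genes, 8.78% had such a p between the EV groups.

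Among 12 tested genes that act on eIF2 control, 2 rose with either preparation (16.7%). Of all genes, 6.44% rose with LD-F1_b EVs and 11.4% with LD-F1 EVs. Dnajc3, which encodes a co-chaperone of the endoplasmic reticulum known as an inhibitor of PKR and PERK, had 251 and 225 CPM with LD-F1_b EVs, 207 and 236 CPM with LD-F1 EVs, and 106 and 95.3 CPM with PBS. It rose by 1.24 ± 0.10 with LD-F1_b EVs (edgeR adjusted p = 1.32e-05) and by 1.14 ± 0.10 with LD-F1 EVs (adjusted p = 8.89e-06). Ppp1r15a, which encodes GADD34, the subunit that directs a phosphatase to eIF2 alpha, had 32.8 and 27.6 CPM with LD-F1_b EVs, 32.9 and 39.5 CPM with LD-F1 EVs, and 15.9 and 17.3 CPM with PBS. It rose by 0.86 ± 0.14 with LD-F1_b EVs (edgeR adjusted p = 0.0023) and by 1.13 ± 0.14 with LD-F1 EVs (adjusted p = 0.000151). EV and PBS libraries did not overlap in either gene. The calls of Dnajc3 were kept in all 14 alternative fits, while that of Ppp1r15a with LD-F1_b EVs was lost without LD-F1_b replicate 1 (adjusted p = 0.0637).

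Among 17 tested genes that control eIF4E and mTOR, 1 rose and 2 fell with LD-F1_b EVs (5.88% and 11.8%). Of all genes, 6.44% rose and 4.54% fell there. With LD-F1 EVs, 1 of the 17 rose and 5 fell (5.88% and 29.4%), where 11.4% and 9.87% of all genes did. Mknk2, which encodes a kinase of eIF4E, fell by 0.49 ± 0.10 on the log2 scale with LD-F1_b EVs and by 0.64 ± 0.10 with LD-F1 EVs. Deptor, an inhibitor of mTOR with no more than 10.9 CPM in any library, fell by 0.78 ± 0.20 with LD-F1_b EVs and by 1.37 ± 0.21 with LD-F1 EVs. Rheb, the activator of mTORC1, rose by 0.38 ± 0.11 with LD-F1_b EVs and by 0.34 ± 0.11 with LD-F1 EVs. Rptor, Mknk1 and Tsc1 fell with LD-F1 EVs, by 0.40 ± 0.09, 0.51 ± 0.12 and 0.38 ± 0.12. The LD-F1_b calls of Deptor and Rheb were lost without either LD-F1_b or either PBS library (adjusted p of 0.127 to 0.397), and that of Mknk2 without LD-F1_b replicate 1 (0.141) or PBS replicate 1 (0.167). The LD-F1 calls of Rptor, Mknk1, Tsc1 and Rheb were lost without either PBS library (0.0761 to 0.355), and those of Tsc1 and Rheb also without LD-F1 replicate 2 (0.127 and 0.14) or either LD-F1_b library (0.0762 to 0.1). DESeq2 did not call Deptor with LD-F1_b EVs (adjusted p = 0.0835) or Tsc1 (0.0647) and Rheb (0.0511) with LD-F1 EVs. Library totals alone ended both calls of Rheb (0.0921 with LD-F1_b EVs and 0.144 with LD-F1 EVs), the gene-length offset those of Rptor (0.0518) and Tsc1 (0.15), and only the groups compared those of Tsc1 (0.0796) and Rheb (0.102) with LD-F1 EVs.

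In elongation, 1 of 11 tested genes rose with LD-F1_b EVs (9.09%, against 6.44% of all genes) and 4 with LD-F1 EVs (36.4%, against 11.4%). Gtpbp2, which encodes a GTPase of stalled ribosomes, rose by 0.82 ± 0.12 with LD-F1_b EVs and by 1.14 ± 0.12 with LD-F1 EVs. Eef1b2 and Eef1g, subunits of the exchange complex of elongation factor 1, rose by 0.40 ± 0.11 and 0.32 ± 0.09 with LD-F1 EVs, and Dhps, the first enzyme of the hypusine modification of eIF5A, by 0.38 ± 0.11. Of 12 genes of the poly(A) tail and helper factors, Denr (0.56 ± 0.11) and Paip2 (0.34 ± 0.10) rose with LD-F1 EVs, and of 6 tested genes of termination and recycling, the release factor gene Etf1 rose (0.27 ± 0.08). That was 16.7% of either list, where 11.4% of all genes rose. In these last 2 lists edgeR and DESeq2 each called 0 genes with LD-F1_b EVs. At an unadjusted p under 0.05 there were 2, where 24.7% of all genes had such a p. The LD-F1 calls of Denr, Paip2, Eef1b2, Eef1g, Dhps and Etf1 were lost without PBS replicate 1 (adjusted p of 0.0521 to 0.273). All of these but Denr were lost without PBS replicate 2 (0.12 to 0.249), and Paip2, Eef1b2, Eef1g and Etf1 without either LD-F1_b library (0.0617 to 0.085). With library totals alone all of these but Denr were lost too (0.0625 to 0.157), and with only the groups compared Paip2, Eef1b2, Eef1g and Etf1 (0.0617 to 0.0811).

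The spread between replicates was itself uneven. The log2 difference between replicates had an SD over the 49 genes of 0.146 for LD-F1_b, 0.182 for LD-F1 and 0.103 for PBS. It followed gene length with Spearman's rho of 0.256 for LD-F1_b, 0.288 for LD-F1 and 0.137 for PBS over the 49 genes. Over 9663 genes rho was 0.195 for LD-F1_b, 0.481 for LD-F1 and 0.00828 for PBS. These are descriptions across genes of the same pair of libraries. With an offset for gene length in each library, 7 of the 49 genes rose and 2 fell with LD-F1_b EVs, where 13.4% of all genes were called, and 15 rose and 2 fell with LD-F1 EVs, where 24.0% were, and the part of length in single values was not otherwise tested.

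**Figure D4:**
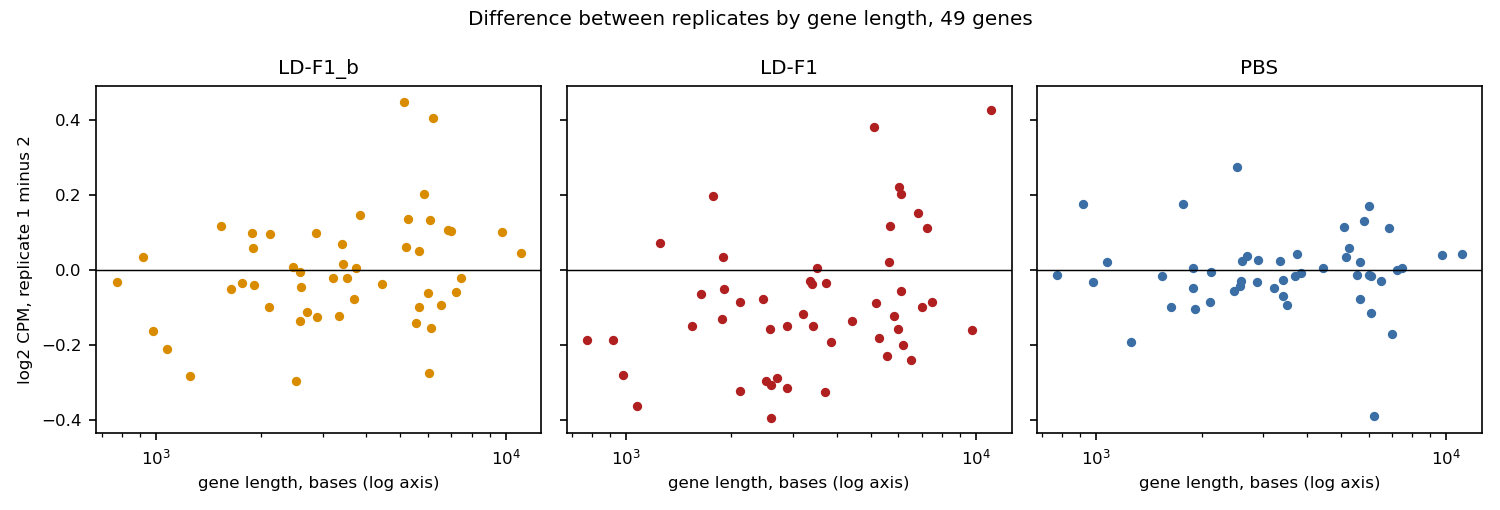
Difference in log2 CPM between replicate 1 and replicate 2 (y axis) against gene length (log x axis) for the 49 genes, in a panel each for LD-F1_b, LD-F1 and PBS. Points spread most in LD-F1, where the genes lie mostly below 0, and least in PBS.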

How the data were processed

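The deposited file gives, for every gene and library, a read count as a whole number, and neither its header nor the labels record a scaling by the authors. The submitters' processing notes list fastp, HISAT2 (2.0.5), StringTie (1.3.3b), featureCounts (1.5.0-p3) and the build GRCm39. The identifiers and positions, however, belong to the C57BL/6NJ strain annotation, and positions are printed unchanged. The sources used here state neither the strand setting nor how multiply mapped reads were treated. Of the sample columns, 0 stayed without a matching label.

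From these counts, genes were kept by filterByExpr, scaled by TMM and tested with edgeR 4.0.16 (quasi-likelihood, robust) in R 4.3.3, all 6 libraries in 1 fit with a mean per group and no batch term. P-values were adjusted by Benjamini-Hochberg over 12740 genes, and a gene was called under 0.05. SEs were computed back from the F test, and SDs are over 2 libraries. CPM uses the TMM-scaled totals, except for marker lists, which use library totals (1 listed marker is not reported here), and RPKM divides it by the table's gene length. Alternatives were DESeq2 1.42.0, other scalings, no filter, fewer libraries, a gene-length offset and a replicate block, and the fit was tested on simulated data.

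Members, lists and tests were chosen with earlier results of these data known. Named with values are all kinases, each called member, and the highest and lowest levels by role; other members were named after their values were seen. Over the 6 libraries, members held at least 1738 counts, and counting error is part of the spread between replicates. Promoter windows come from RefSeq on GRCm38.p6, a build not mixed with the table's positions.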

Additional observations from a re-analysis of the deposited data

How the results depend on the processing

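Each result was recomputed under 14 alternative fits, 6 of which left out a library. No named gene that was called in the reported fit changed sign in any of them. For initiation factor genes with LD-F1_b EVs against PBS, where 4 rose and 1 fell, 7 rose and 2 fell with the gene-length offset, with or without the replicate block. With library totals alone 1 rose and 2 fell, with no filter 2 fell, and with only the groups compared 15 rose and 3 fell. Of all genes, 11.0% were called in the reported fit, 13.4% with the offset and 13.0% with offset and block. With library totals 11.8% were, with no filter 8.22% and with only the groups compared 24.8%. With LD-F1 EVs, where 13 rose and 2 fell, library totals alone gave 6 and 4, and only the groups compared gave 7 higher. Of all genes, 22.8% and 15.6% were called in these fits, against 21.2% in the reported fit. Other fits called more initiation factor genes with LD-F1 EVs, namely 21 with no filter, 19 with offset and block and 17 with DESeq2. Of the genes tested in each, 13.8%, 23.3% and 20.4% were called. With library totals the median of all genes shifted to -0.067 (LD-F1_b) and -0.099 (LD-F1), against 0.006 in both with TMM, and the share of higher genes among all calls to 41.7% against 58.7% and to 33.6% against 53.5%.

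For the other translation genes with LD-F1_b EVs, where 4 rose and 2 fell, 1 fell with DESeq2, 5 fell with library totals, and 13 rose and 8 fell with only the groups compared. Of all genes, 10.9%, 11.8% and 24.8% were called in these fits. With LD-F1 EVs, where 10 rose and 5 fell, 3 fell with the gene-length offset, with or without the replicate block, 4 rose and 8 fell with library totals, and 5 rose with only the groups compared. Of all genes, 24.0% were called with the offset, 23.3% with offset and block, 22.8% with library totals and 15.6% with only the groups compared. Single genes of these lists were followed through the alternatives after their values were seen.

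With each library left out in turn, initiation factor genes called numbered 0 to 15 higher and 0 to 3 lower (LD-F1_b against PBS), 2 to 23 and 0 to 4 (LD-F1 against PBS), and 0 to 1 and 0 to 8 (LD-F1_b against LD-F1). Other translation genes numbered 2 to 13 and 0 to 8, 3 to 20 and 2 to 13, and 0 to 3 and 0 to 6 in the same order. A group left with 1 library was assumed to vary like the others. The share of all genes called moved in these fits too, not that of these lists alone.

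The labels do not say what a replicate number shares. Deviations of same-numbered libraries correlated at 0.131 (LD-F1_b and LD-F1), -0.0403 (LD-F1_b and PBS) and -0.0167 (LD-F1 and PBS), so the numbers were not taken as pairs. With the replicate block, 4 initiation factor genes rose and 1 fell with LD-F1_b EVs, where 10.7% of all genes were called. With LD-F1 EVs, 12 rose and 3 fell, where 21.2% of all genes were called. Not all of these were the genes of the reported fit. With LD-F1_b EVs, Eif1a was lost (adjusted p = 0.0573) and Eif1 gained, and with LD-F1 EVs, Eif2ak3 (0.0558) and Eif4a2 (0.0546) were lost and Eif3f and Eif4g3 gained. Rheb was lost with LD-F1_b EVs (0.0551) and with LD-F1 EVs (0.0547). With the block and the gene-length offset together, Eif2ak3 was called with LD-F1_b EVs (0.0328), Eif2ak2 was called with LD-F1 EVs (0.0448), and the LD-F1 calls of Eif3e (0.0894), Eif3k (0.0983), Rptor (0.0547) and Tsc1 (0.171) were lost. The cause of these dependences was not tested. With 2 libraries per group, a p that misses the threshold does not show that values did not differ.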
